A study of Mus musculus with 18 samples.

Results

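The flavin-containing monooxygenase genes Fmo1, Fmo2, Fmo4 and Fmo5 were followed in the liver of mice fed a diet depleted of riboflavin (vitamin B2). These 4 genes were picked by symbol from the 54532 genes of each deposited expression table, and all 4 had values in all 18 libraries. All 4 passed the filter on low values in both tables, a mean of at least 0.5 FPKM, where FPKM is a read count divided by the length of the gene and the depth of the library. RNA was sequenced from whole liver of male wild-type C57BL/6J mice that entered the diets at 4 weeks of age and were fasted overnight before harvest. In the first table, 5 mice had a control diet (Ctrl) and 5 had the vitamin B2-deficient diet (B2D), with 99% of riboflavin removed, for 1 month. In the second table, 4 control-fed mice (Ctrl+FF) and 4 B2-deficient mice (B2D+FF) stayed on their diets for 9 weeks and were gavaged each day with fenofibrate, an activator of the nuclear receptor PPARα, from week 7 to week 9, with the last dose 2 hours before harvest. Each library came from its own mouse.

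Flavin-containing monooxygenases sit in the membrane of the endoplasmic reticulum and carry a tightly bound flavin adenine dinucleotide (FAD), which is made from riboflavin. NADPH reduces the flavin, the reduced flavin binds oxygen, and the resulting hydroperoxide waits in the active site until a soft nucleophile, usually a nitrogen or sulfur atom of a drug or of a dietary compound, takes up the oxygen. Unlike cytochromes P450 they need no separate reductase. The family is known in liver for the oxidation of tertiary amines and thioethers, and its members differ in tissue and substrate.

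Fmo1, Fmo2 and Fmo4 lie next to one another on the minus strand of chromosome 1, and Fmo5 lies apart on the plus strand of chromosome 3. On the mouse build GRCm38 (mm10), Fmo4 (ENSMUSG00000026692) spans chr1:162793188-162813972, Fmo1 (ENSMUSG00000040181) spans chr1:162829561-162866610 and Fmo2 (ENSMUSG00000040170) spans chr1:162874317-162898726. The gap was 15.6 kb between Fmo4 and Fmo1 and 7.71 kb between Fmo1 and Fmo2. Fmo5 (ENSMUSG00000028088) spans chr3:97628804-97655282. The coding sequences of the 4 genes, read from GENCODE M21, are 1596 to 1680 bases long. Aligned in pairs, they were identical at 62.8% (Fmo1 and Fmo5) to 67.2% (Fmo2 and Fmo4) of aligned bases. No run of 75 bases from any transcript of Fmo2, Fmo4 or Fmo5 occurred in another annotated gene, whereas 6.11% of the 75-base runs of Fmo1 did, so a part of its reads could be split or dropped in counting.

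The sequence before the start of Fmo2 is shown because Fmo2 was the member whose groups separated in both tables. It covers the 250 bases before the more upstream of the 2 RefSeq starts listed, chr1:162898759-162899008 on the minus strand of GRCm38.p6. The capitals mark the only match in it among the 7 motifs searched. The window of the other start is not shown.
Fmo2 upstream: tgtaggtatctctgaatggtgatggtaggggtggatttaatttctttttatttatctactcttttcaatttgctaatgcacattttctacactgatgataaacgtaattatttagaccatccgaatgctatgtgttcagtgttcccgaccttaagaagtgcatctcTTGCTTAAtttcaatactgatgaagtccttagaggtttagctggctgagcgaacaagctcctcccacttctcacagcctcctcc
The 7 patterns, read on both strands, were TTCNNNGAA for STAT factors, AGGTCA for a nuclear receptor half-site, TTGCNNAA for C/EBP factors, GCGTG for the aryl hydrocarbon receptor, the CCAAT box, GTTAAT for an HNF1 half-site and the TATA box with the letters TATAAA. The match to TTGCNNAA begins 84 bases before the start, and 9.56% of the 32851 upstream windows of the same length in the table hold that pattern. These bases are 39.6% G or C, where the median window is 52.4%. Of the windows listed for Fmo4 and Fmo5, 250 and 215 bases lie inside the genes as the deposited tables annotate them, and these windows are not shown.

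In control mice the 4 genes were expressed at very different levels. Fmo5, which is known for Baeyer-Villiger oxidation of ketones more than for amine oxidation, was the most abundant, at 161 FPKM ± 38.8 (SD, n = 5) in Ctrl, a level above that of 97.4% of the genes tested. Fmo1, known for a broad range of amine and sulfur substrates and for making taurine from hypotaurine, stood at 39.1 FPKM ± 8.72. Fmo2, best known as the form of the lung, stood at 6.60 FPKM ± 2.40, and Fmo4, whose substrates are little known, at 2.76 FPKM ± 0.721. Fmo5 exceeded Fmo1, and Fmo1 exceeded Fmo2, in every one of the 18 libraries, while the ranges of Fmo2 and Fmo4 did not overlap in Ctrl, in B2D or in B2D+FF. In Ctrl+FF they did: Fmo2 ran from 3.46 to 5.08 FPKM and Fmo4 from 2.42 to 4.30 FPKM. These levels depend on the length by which reads were divided, which was that of all annotated exons. For Fmo1 this was 6304 bases, 2.64 times its longest protein-coding transcript, against 1.09 times for Fmo5 and 1.38 times for Fmo2 and Fmo4. Fmo1 is thus set low beside the others. By the length of that transcript the ratio of Fmo5 to Fmo1 in B2D was 0.80 to 1.41, so their order there depends on the length used. Recovered read numbers ran from 128 for Fmo4 in a Ctrl mouse to 27269 for Fmo5 in another.

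**Figure D1:**
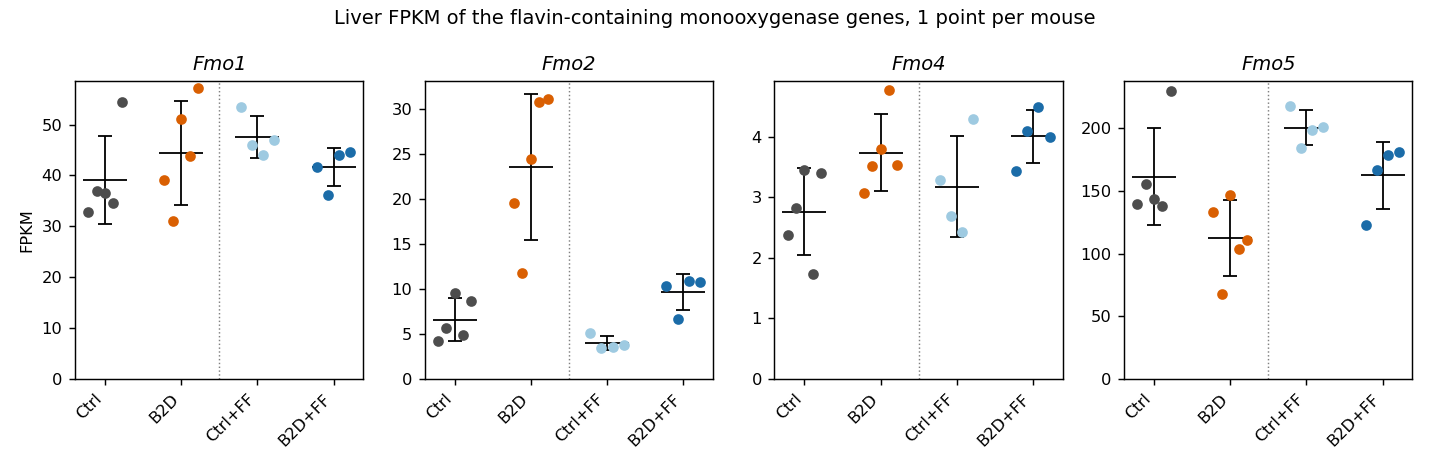
FPKM of each gene in every mouse, with the y axis starting at 0 and set for each gene, and a dotted line between the 2 tables, which were normalised separately. Points are mice, and bars give the mean and SD of the 5 (Ctrl, B2D) or 4 (Ctrl+FF, B2D+FF) mice; only for Fmo2 do the deficient mice lie above all their controls in both tables.

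After 1 month without riboflavin, Fmo2 was the only member whose difference passed the test over all genes. Its level was 4.24, 5.63, 9.59, 4.84 and 8.70 FPKM in the 5 Ctrl mice and 19.6, 11.8, 24.5, 30.8 and 31.2 FPKM in the 5 B2D mice. The lowest B2D mouse lay above the highest Ctrl mouse, so that all 25 pairs of a deficient and a control mouse had the higher value in the deficient one. The mean rose from 6.60 ± 2.40 to 23.6 FPKM ± 8.15 (SD, n = 5 each), a ratio of means of 3.57. On the log2(FPKM + 1) scale, which understates changes of low genes, the difference was 1.67 (SE 0.270, 95% interval 1.09 to 2.26) with an adjusted p of 0.00972 by limma with Benjamini-Hochberg adjustment over 11574 genes. Across all genes tested, 0.769% were called higher and 2.7% were called in either direction, and 2.08% had every B2D mouse above every Ctrl mouse. The two-sided exact permutation test gave p = 0.00794 for Fmo2, the smallest value that 5 against 5 can give. In total 8 such tests were run, and neither Fmo2 test passes the threshold after adjustment over them. With the filter on low values removed, the limma call was lost, with an adjusted p of 0.0527 over the larger number of genes.

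The other members gave smaller differences on this diet, none of which passed the limma test. For Fmo5 the Ctrl mice had 139, 156, 144, 138 and 230 FPKM and the B2D mice 133, 67.7, 147, 104 and 111 FPKM. Here 4 of the 5 B2D mice lay below all Ctrl mice, and the remaining one, at 147 FPKM, lay inside the control range. Over all genes tested, 8.42% had at least 4 of the 5 B2D mice below every Ctrl mouse, and 2.89% had all 5. Its mean was 161 ± 38.8 in Ctrl and 112 FPKM ± 30.4 in B2D, a log2 difference of -0.54 (SE 0.208, 95% interval -0.99 to -0.08, limma adjusted p = 0.198), and the exact permutation test gave p = 0.0397 before adjustment. Fmo4 stood at 2.38, 2.82, 3.45, 1.74 and 3.41 FPKM in Ctrl and at 3.06, 3.51, 3.80, 4.77 and 3.53 FPKM in B2D. Again 4 of the 5 B2D mice lay beyond the control range, here above it, as in 6.96% of all genes tested. The log2 difference of Fmo4 was 0.35 (SE 0.144, 95% interval 0.03 to 0.66, limma adjusted p = 0.225), with an exact permutation p of 0.0476 before adjustment. Fmo1 overlapped widely, at 32.9, 37.0, 36.6, 34.6 and 54.4 FPKM in Ctrl and 39.2, 31.0, 51.0, 43.9 and 57.2 FPKM in B2D. Its log2 difference was 0.17 (SE 0.177, limma adjusted p = 0.631), and the 95% interval of -0.21 to 0.56 leaves room for a change in either direction. It was 0.08 without B2D mouse 5 and 0.30 without Ctrl mouse 5.

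Under fenofibrate and 9 weeks of diet, Fmo2 was again higher in the deficient mice. The 4 Ctrl+FF mice had 5.08, 3.46, 3.57 and 3.82 FPKM and the 4 B2D+FF mice had 10.4, 6.70, 10.8 and 10.8 FPKM. The groups did not overlap, in any of 16 pairs, and 3 of the 4 deficient mice lay close together above the fourth. The mean rose from 3.98 ± 0.75 to 9.67 FPKM ± 2.00 (SD, n = 4 each), a ratio of 2.43. The log2 difference was 1.09 (SE 0.159, 95% interval 0.73 to 1.45, limma adjusted p = 0.00843 over 11878 genes). Among these genes 2.24% were called higher, 4.45% were called in either direction, and 7.82% had all deficient mice above all controls. The exact permutation test gave p = 0.0286, the smallest value that 4 against 4 can give.

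Fmo5 was the other member whose groups separated under fenofibrate, in the opposite direction. Its values were 218, 184, 199 and 201 FPKM in Ctrl+FF and 123, 167, 179 and 181 FPKM in B2D+FF, so the highest deficient mouse stood just under the lowest control. Over all genes tested, 6.44% had all deficient mice below all controls, and Fmo5 did not pass the limma test. The mean was 201 ± 13.8 against 163 FPKM ± 27.0, a log2 difference of -0.31 (SE 0.135, 95% interval -0.62 to -0.01, limma adjusted p = 0.219), and the exact permutation test gave p = 0.0286 before adjustment. Without B2D+FF mouse 1 the log2 difference was -0.19 (limma adjusted p = 0.350). Fmo4 overlapped between the groups, at 3.29, 2.69, 2.42 and 4.30 FPKM in Ctrl+FF and 3.44, 4.10, 4.48 and 4.001 FPKM in B2D+FF. Its log2 difference was 0.28 (SE 0.137, 95% interval -0.03 to 0.59, limma adjusted p = 0.280). Fmo1 overlapped as well, at 53.4, 45.9, 44.0 and 46.9 FPKM in Ctrl+FF and 41.7, 36.2, 44.0 and 44.6 FPKM in B2D+FF, with a log2 difference of -0.19 (SE 0.0994, 95% interval -0.41 to 0.03, limma adjusted p = 0.314), which was -0.13 without B2D+FF mouse 2.

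**Figure D2:**
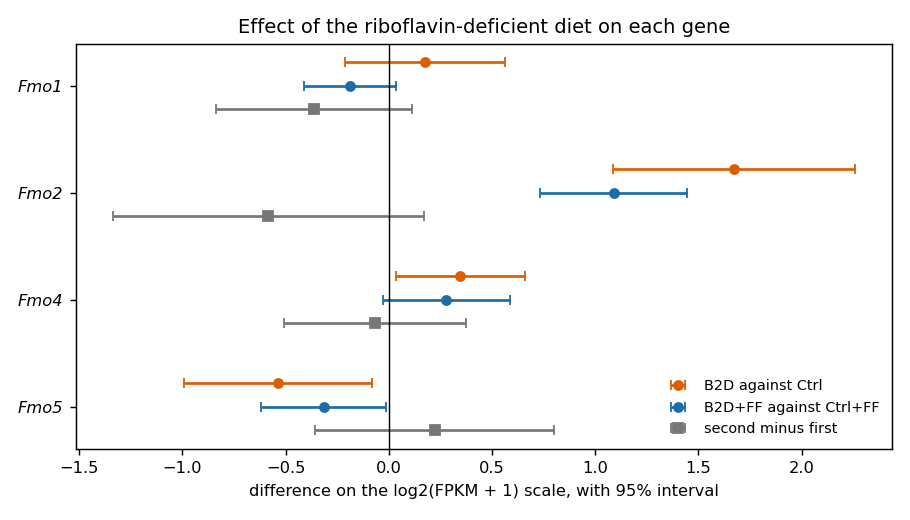
Difference between deficient and control mice on the log2(FPKM + 1) scale for each gene, with its 95% interval from limma, without fenofibrate (orange), with fenofibrate (blue) and the second minus the first (grey squares). The intervals of Fmo2 start at 1.09 and 0.73, well above 0, those of Fmo1 cross 0, and every grey interval crosses 0.

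Whether the diet effect differed between the experiments was tested as the difference of the 2 differences. None of the members passed, where 0.228% of 11862 genes did. For Fmo2 the effect with fenofibrate was lower by 0.58 on the log2 scale (SE 0.358, 95% interval -1.34 to 0.17, limma adjusted p = 0.531), an interval that holds a much smaller effect as well as an equal one. The difference was -0.36 (SE 0.225, limma adjusted p = 0.537) for Fmo1, -0.07 (SE 0.210, limma adjusted p = 0.932) for Fmo4 and 0.22 (SE 0.275, limma adjusted p = 0.788) for Fmo5. The 2 experiments differ in fenofibrate and its daily gavage, in diet length, in age at harvest and in normalisation at once. These cannot be told apart. For the same reason the lower Fmo2 and the higher Fmo5 of the second table are side by side only. In order, the group means of Fmo2 ran B2D, B2D+FF, Ctrl and Ctrl+FF, and all neighbours in that order but B2D and B2D+FF had overlapping ranges. Those of Fmo5 ran Ctrl+FF, B2D+FF, Ctrl and B2D, with overlap between all neighbours but Ctrl+FF and B2D+FF, and the ranges of Fmo1 overlapped between all neighbours in the order.

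The share of Fmo2 in the summed level of the 4 genes differed between the diets, while the ranges of that sum overlapped. Other genes of the family are not in the sum. The summed level of the 4 genes was 210 FPKM ± 49.2 in Ctrl and 184 ± 42.3 in B2D, and 255 ± 18.2 in Ctrl+FF and 218 ± 28.7 in B2D+FF. Fmo2 made up 2.37% to 4.96% of that sum in Ctrl and 10.03% to 16.8% in B2D. With fenofibrate its share was 1.43% to 1.82% in controls and 3.13% to 5.80% in deficient mice. Fmo5 held 74.3% to 77.9% in Ctrl and 54.6% to 68.3% in B2D. With fenofibrate its shares overlapped, at 77.9% to 79.9% in controls and 68.9% to 78.0% in deficient mice. Shares of the same sum depend on each other, so a larger share of Fmo2 leaves less for Fmo5. How often such shares separate for other sets of genes was not counted.

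**Figure D3:**
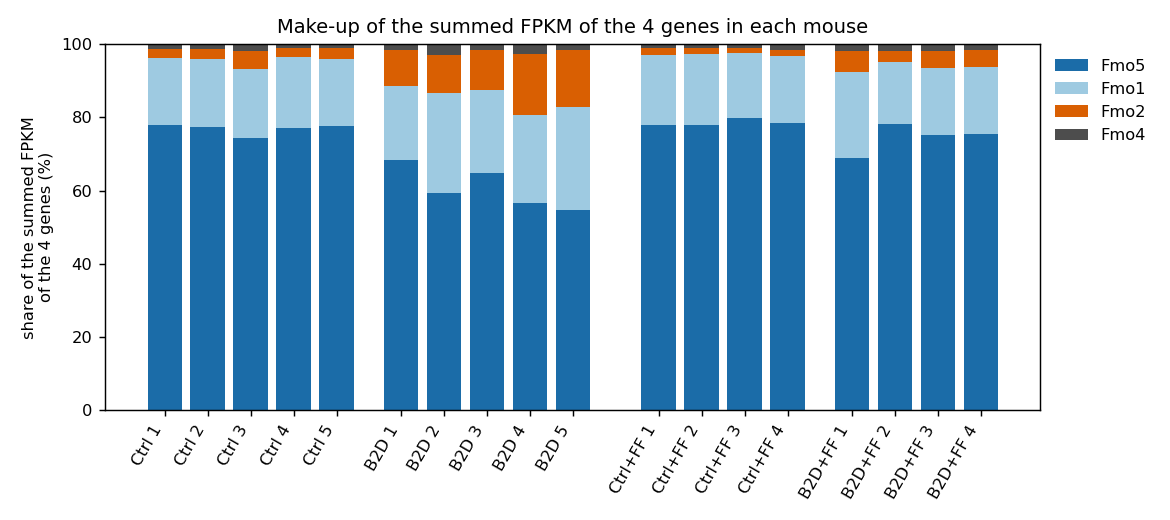
Share of each gene in the summed FPKM of Fmo1, Fmo2, Fmo4 and Fmo5, in percent, with 1 stacked bar for each mouse. The Fmo2 band (orange) is at least 10.03% in each B2D mouse and at most 4.96% in each Ctrl mouse.

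The ratio of the abundant pair varied little among controls. Fmo5 was 3.93 to 4.24 times as high as Fmo1 in the 5 Ctrl mice, although Fmo5 itself ranged from 138 to 230 FPKM among them. In B2D the ratio was 1.93 to 3.41, below every Ctrl mouse. How often the ratios of other gene pairs separate in this way was not counted. In Ctrl+FF it was 4.01 to 4.52, and in B2D+FF it was 2.95, 4.61, 4.06 and 4.06, so that only 1 of the 4 deficient mice lay below all controls. The Ctrl mouse that was highest for Fmo1 (54.4 FPKM) was also the highest for Fmo5 (230 FPKM), and the B2D mouse with the least Fmo1 (31.0 FPKM) had the least Fmo5 (67.7 FPKM). With the length of the longest protein-coding transcript in place of all exons, a choice made after seeing the data, the B2D ratio was 0.80 to 1.41, so that the 2 genes could not be ordered in those mice.

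**Figure D4:**
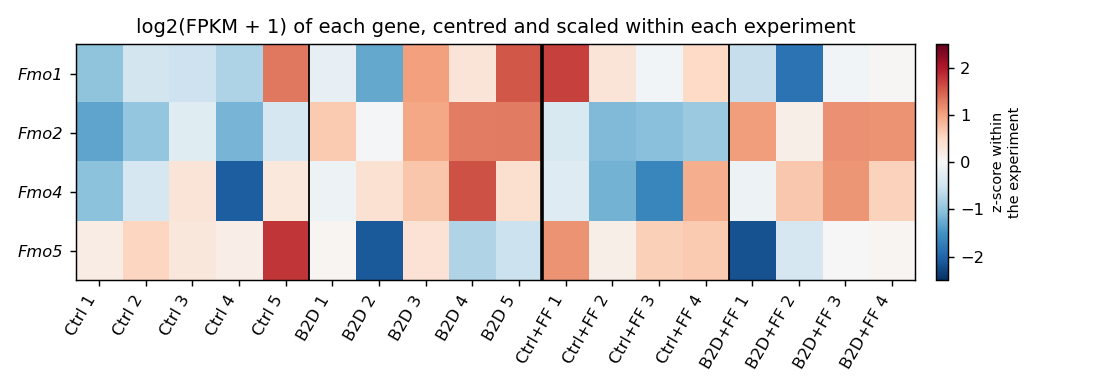
Expression of each gene as log2(FPKM + 1), centred on its mean and divided by its SD within each experiment, with 1 column for each mouse and a thick line between the experiments. Red is above and blue below the mean of the experiment; for Fmo2 all 5 Ctrl mice and all 4 Ctrl+FF mice are below 0, and Ctrl mouse 5 is the highest for Fmo5, at 1.78.

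Of the genes beside the members, limma called 1, where it called 2.7% of all genes tested without and 4.45% with fenofibrate. Outside the family, 7 protein-coding genes lie within 500 kb of the chromosome 1 members and 3 of them could be tested in each table. Prrc2c was called without fenofibrate, with a log2 difference of 0.47 (limma adjusted p = 0.0344) from 2.62 FPKM in Ctrl to 4.004 FPKM in B2D, and with fenofibrate its value was 0.12 (limma adjusted p = 0.486). Vamp4 stood at -0.10 and -0.09 and Mettl13 at 0.01 and -0.05 in the respective tables. Around Fmo5, 9 protein-coding genes lie within that distance. Of these, 6 were tested without and 7 with fenofibrate, and limma called 0 of them (0 and 1 at an unadjusted p under 0.05, and 0 by voom on recovered reads), with log2 differences of -0.06 to 0.28 and -0.19 to 0.10 and lowest adjusted p-values of 0.360 and 0.230. The nearest on either side were Prkab2, a subunit of AMP-activated kinase, 2.91 kb away, at 0.04 with fenofibrate and under the filter without, and Chd1l, 18.6 kb away, at -0.03 and 0.10.

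**Figure D5:**
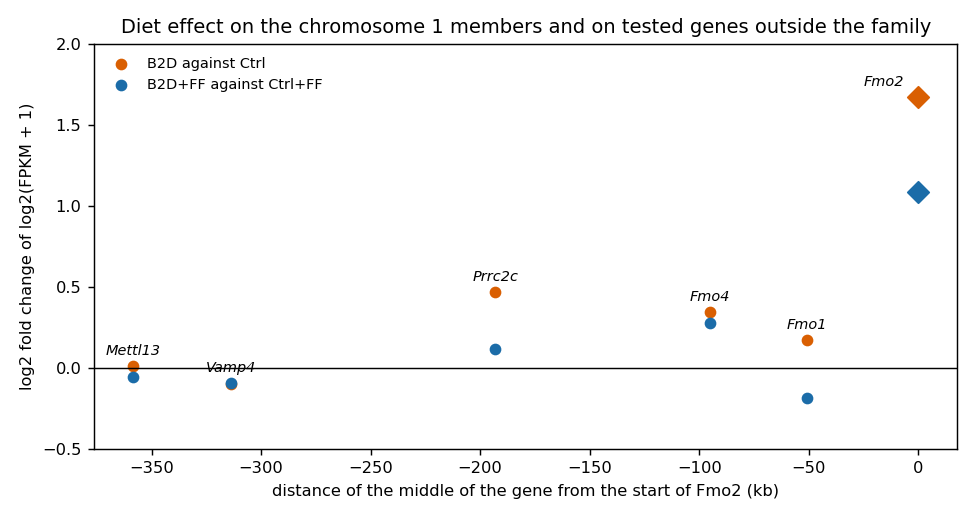
Log2 difference between deficient and control mice for Fmo2 (diamonds), and for Fmo1, Fmo4 and the tested genes outside the family within 500 kb (circles), against the distance of the middle of each gene from the start of Fmo2 in kb, negative where the gene lies downstream of it. Fmo2 stands at 1.67 and 1.09, and the other genes plotted lie between -0.19 and 0.47.

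The genes whose pattern over the 18 libraries was most like that of each member were ranked among 9936 protein-coding genes by the root mean square difference of z-scores, where 0 is an identical pattern. The median gene lay at 1.32 from Fmo2. The nearest to Fmo2 were Slco1a4 (0.366), Cps1 (0.373), Uhrf1bp1l (0.393), Cd2ap (0.405) and Cyp39a1 (0.413). Slco1a4, an organic anion uptake carrier, stood at 14.5 FPKM in Ctrl, 52.4 in B2D, 1.46 in Ctrl+FF and 12.9 in B2D+FF. Cyp39a1, an oxysterol hydroxylase, stood at 17.5, 35.9, 4.05 and 14.3 FPKM, and Cps1, which makes carbamoyl phosphate for the urea cycle, at 1007, 1461, 515 and 834 FPKM. Of the other members, Fmo4 came 259th in likeness to Fmo2 (0.725), Fmo1 came at place 3363 (1.19) and Fmo5 at place 8680 (1.60), which is farther than the median gene. The nearest to Fmo5 were Nectin3, Mlec, Psd3, Acadsb and Lmbrd2 (0.396 to 0.443), none of which limma called in either table. Acadsb, a mitochondrial acyl-CoA dehydrogenase that also holds FAD, stood at 18.4 FPKM in Ctrl and 13.3 in B2D, and at 15.4 in Ctrl+FF and 12.4 in B2D+FF. Those nearest to Fmo1 were Pls3, Supt16, Vps54, Anp32a and Fign (0.534 to 0.600), and those nearest to Fmo4 were Dock9, Trak2, Nup98, Tm6sf2 and Ktn1 (0.467 to 0.541).

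None of the genes listed for the supply of FAD and NADPH, or for microsomal electron transfer, was called by limma in either table. The electron transfer list was counted beside them, although flavin-containing monooxygenases need no separate reductase. Of the 5 genes for riboflavin uptake and FAD synthesis, 4 were tested, and limma called 0 of them in either table, as did voom on recovered reads, with 0 without and 2 with fenofibrate at an unadjusted p under 0.05. By sign all 4 were higher in B2D, with a median log2 difference of 0.20. In B2D+FF 3 were higher and 1 was lower, with a median of 0.26. Rfk, the riboflavin kinase, stood at 19.1 FPKM in Ctrl and 22.0 in B2D (adjusted p = 0.310 by limma), and at 25.7 in Ctrl+FF and 32.4 in B2D+FF (adjusted p = 0.0817 by limma). Flad1, the FAD synthase, stood at 9.51 and 10.5 FPKM, and at 10.2 and 13.0 FPKM. Of 5 genes that supply NADPH and of 5 microsomal electron transfer partners, limma likewise called 0 in either table, with 2 and 2 without and 3 and 2 with fenofibrate at an unadjusted p under 0.05. By voom, 1 gene of each list was called with fenofibrate, Pgd of the pentose phosphate pathway (4.22 and 6.24 FPKM) and Cyb5r3 (59.7 and 41.1 FPKM), and 0 without. The median log2 differences of the NADPH and electron transfer lists were 0.03 and -0.10 without and 0.04 and -0.06 with fenofibrate. Over all genes tested the medians were 0.00 without and 0.01 with fenofibrate, and limma called 2.7% and 4.45% of genes. The lowest adjusted p-values were those of Cyb5r3, the cytochrome b5 reductase (0.0582 with fenofibrate by limma), and of Cyb5a, cytochrome b5 (0.0742 without it). The 4 genes for taurine synthesis and uptake, which bear on the hypotaurine substrate of Fmo1, held no limma call in either table, with 0 and 1 at an unadjusted p under 0.05. By voom the taurine carrier Slc6a6 was called with fenofibrate, at 5.57 FPKM in Ctrl+FF and 4.09 FPKM in B2D+FF.

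Among 8 other flavoenzymes that act on drugs, limma called 0 without fenofibrate (2 at an unadjusted p under 0.05, and 0 by voom) and Nqo1 with it. With fenofibrate 3 had an unadjusted p under 0.05, and voom called 2, Maoa and Nqo1. Maoa, a monoamine oxidase, stood at 3.14 FPKM in Ctrl+FF and 4.42 FPKM in B2D+FF (limma adjusted p = 0.0513). Over all genes tested limma called 2.7% without and 4.45% with fenofibrate. Nqo1, a quinone reductase, rose from 7.65 to 12.1 FPKM between Ctrl+FF and B2D+FF (log2 difference 0.59, SE 0.0969, limma adjusted p = 0.0133) and stood at 4.54 and 5.77 FPKM without fenofibrate (limma adjusted p = 0.484). Aox3, an aldehyde oxidase, stood at 37.7 and 21.3 FPKM without and at 14.3 and 7.19 FPKM with fenofibrate (limma adjusted p = 0.140 and 0.110). Of 8 targets of PPARα, the receptor that fenofibrate activates, limma called 0 in either diet comparison, with medians of 0.20 and 0.18. At an unadjusted p under 0.05 there were 3 without and 0 with fenofibrate, and voom called the same numbers, here Cyp4a14, Ehhadh and Pdk4. Pdk4, a kinase that inhibits pyruvate dehydrogenase, gave 4.62 and 12.3 FPKM without fenofibrate (limma adjusted p = 0.0687).

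Lists of genes known to differ between male and female liver were counted too. Slco1a4, the gene nearest to Fmo2, is on one of them, and the other genes named as nearest to Fmo2 are on neither. The z-scores behind that ranking keep the difference between the diets, so the nearness of Slco1a4 is not separate from its diet effect. Of 15 genes that are higher in male liver, 15 were tested without fenofibrate and 12 fell in B2D, where 1.94% of all genes were called lower. Among the 12, Hsd3b5 (18.6 FPKM in Ctrl, 0.379 in B2D) passed the filter only through the control mice and so had to differ. With fenofibrate 14 were tested and 9 fell, where 2.21% of all genes were called lower. Of 15 genes that are higher in female liver, 7 were tested in each table and 8 were under the filter. Without fenofibrate, 4 of the 7 (Cyp2b9, Cyp2b10, Cyp2a4 and Cux2) passed it through the deficient mice and so had to differ, and no count is read from this list. Cux2, a transcription factor of female liver that passed the filter in this way, stood at 0.0417 FPKM in Ctrl and 1.82 FPKM in B2D, and no p is read for it. Mup20, a major urinary protein of males, fell from 5231 to 622 FPKM without fenofibrate (limma adjusted p = 0.000524). In the fenofibrate table Cyp2b10, an inducible cytochrome, rose from 1.60 to 43.7 FPKM (limma adjusted p = 0.000356), and Mup7 fell from 2866 to 29.4 FPKM (limma adjusted p = 0.000918). The part of these changes in that of Fmo2 was not tested.

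The libraries held 15320729 to 21898502 reads on genes, and no value in them goes against the label of liver. The summed level of 6 hepatocyte markers was 30798 to 45376 FPKM without and 18260 to 24248 FPKM with fenofibrate. The sums of the other marker lists, of 6 genes each, were at most 107 FPKM (Kupffer cells), 45.4 (stellate cells and fibroblasts), 45.3 (sinusoidal endothelium), 38.0 (cholangiocytes) and 2.71 (lymphocytes) in any library, and no list had a gene at 0 in all libraries of a group. Of these markers Clec4f of Kupffer cells fell in B2D (log2 difference -0.47, limma adjusted p = 0.0412), and Lyve1 of the sinusoidal endothelium rose in B2D+FF (0.77, limma adjusted p = 0.0294). No other marker tested was called by limma in either comparison, where 2.7% of all genes were called without and 4.45% with fenofibrate. By sign, 5 of the 6 Kupffer cell markers were lower and 1 was higher in B2D. Of the 6 endothelial markers, 5 were lower in B2D+FF and only Lyve1 was higher. The sum of the Kupffer cell list ran from 72.4 to 93.4 FPKM in Ctrl and from 53.8 to 86.3 in B2D, and that of the endothelial list from 28.1 to 33.5 in Ctrl+FF and from 25.9 to 38.5 in B2D+FF. Their part in the results for the family was not tested, and in whole liver a change in the number of cells of a type cannot be told apart from a change in RNA per cell.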

How the data were processed

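The authors aligned liver RNA-seq reads with STAR to mm10, counted them per gene with featureCounts and used DESeq2 for differential expression, per the labels and methods; versions are not given in the sources used here. The deposited values are FPKM, in 2 tables normalised separately, with no per-sample column left unused (0). Reads were recovered from FPKM, length and library size: 100% of values of up to 1000 reads came out whole within 0.05 in every library. The library sizes in the FPKM were in the proportions of median-of-ratios size factors computed here from those reads within each table (ratio 1). Depth was 15320729 to 21898502 reads on genes per library (median 18221850). Interval widths cover the spread between mice. The lowest Pearson correlation between libraries of a group, across genes, was 0.979, and no pair was identical.

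Each table was tested alone with limma 3.58.1 (R 4.3.3, trended prior variance) on log2(FPKM + 1), keeping genes whose FPKM averaged 0.5 or more, with Benjamini-Hochberg adjustment over all genes tested and a threshold of 0.05. The difference between diet effects was a contrast in 1 fit of 18 libraries. Two-sided exact permutation tests of the difference in mean log2(FPKM + 1) were run for each member and table. The fit was tested on simulated data. Levels of the members, shares and ratios are descriptions. Sequences came from RefSeq (GRCm38.p6), whose promoter table held 3 of the 4 members, Fmo1 not among them, and coding sequences from GENCODE M21, read with Biopython 1.88. Alternatives were another pseudocount (0.1), no filter or a stricter one (5), upper quartile and quantile scaling, array weights, all groups in 1 fit, voom on recovered reads, permutation and leaving out each library.

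The members, gene lists and tests were chosen with earlier results of these data known. Genes named are the 4 members, up to 3 called genes with the smallest adjusted p of each list, protein-coding genes within 500 kb of a member, and the 5 nearest in pattern to each. Members of lists that were not called are named with their values as examples, chosen after these were seen. Genes that passed the filter only through the mice of either diet are named for that reason. Other genes of the family are not reported here.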

Additional observations from a re-analysis of the deposited data

Results flagged for a closer look

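In 3 of the 16 combinations of a gene and a group, 1 mouse stood far from the others of its group by Dixon's gap test, where chance marks about 1 in 20. Ctrl mouse 5 was the highest for Fmo1, at 54.4 FPKM, and for Fmo5, at 229.8 FPKM, and its Fmo5 to Fmo1 ratio of 4.22 lay within the range of the other Ctrl mice. B2D+FF mouse 2 was the lowest of its group for Fmo2, at 6.70 FPKM, still above all Ctrl+FF mice. Without Ctrl mouse 5 the log2 difference of Fmo5 in B2D was -0.40 (limma adjusted p = 0.290), and without B2D+FF mouse 2 that of Fmo2 was 1.24 (limma adjusted p = 0.00356).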

How the results depend on the processing

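The direction of each member's diet effect was kept in both tables under all alternatives run. The Fmo2 call was kept without each library in turn, at 1.55 to 1.89 (10 of 10) without fenofibrate and 1.03 to 1.24 (8 of 8) with it. It was lost with no filter without fenofibrate (1.67, limma adjusted p = 0.0527 over 25041 genes), and for the exact permutation tests, adjusted over the 8 (1.67 and 1.09), where the smallest possible p limits the result. No other member gained a call under any alternative. The difference between diet effects of Fmo4 reversed without Ctrl mouse 4, B2D mouse 4 or Ctrl+FF mouse 4, and ran from -0.16 to 0.055 when each library was left out.

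The number of genes called, 313 without fenofibrate, was 67 with no filter, 731 with all 4 groups in 1 fit, 403 with voom on recovered reads and 98 to 332 without single libraries, moving by over 1.5 times without Ctrl mouse 1, 2 or 4 or B2D mouse 2 or 4. With fenofibrate it was 529, and 272 with no filter, 885 with array weights, 742 with voom and 175 to 596 without single libraries, moving as much without Ctrl+FF mouse 1, 2 or 3 or B2D+FF mouse 1 or 4. For the difference of diet effects it was 27, and 16 with a pseudocount of 0.1, 136 with array weights and 17 to 66 without single libraries, moving as much without Ctrl mouse 5, B2D mouse 1 or Ctrl+FF mouse 2. With the length of the longest protein-coding transcript, a choice made after seeing the data, the mean ratio of Fmo5 to Fmo1 was 1.70 in Ctrl, 1.06 in B2D, 1.75 in Ctrl+FF and 1.62 in B2D+FF, against 4.12, 2.55, 4.22 and 3.92. Fmo4 gave no value at a mean FPKM of at least 5. No paired analysis was possible because each mouse has its own number and no numbers are shared between groups. With 4 or 5 mice a group, the 95% intervals given limit what can be said of Fmo1, Fmo4 and Fmo5.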
